A study of Sus scrofa domesticus with 6 samples.

Results

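The genes described here are the matrix metalloproteases (MMP), the ADAM and ADAMTS metalloproteases, the ADAMTS-like proteins (ADAMTSL) and the tissue inhibitors of metalloproteases (TIMP), in the mandibular condyle of miniature pig embryos. Members were the rows of the deposited gene table whose gene name is MMP, ADAM, ADAMTS, ADAMTSL or TIMP followed by a number, apart from MMP9 and MMP13. This gave 57 genes on 59 of 25322 rows: 15 MMP, 18 ADAM, 16 ADAMTS, 4 ADAMTSL and 4 TIMP genes. ADAM17 and ADAMTS1 each had 2 rows, and the row with more counts was used. The condyle is the growing end of the lower jaw on its side of the temporomandibular joint, and the series compares 3 libraries of embryos at day 85 of gestation with 3 at day 45 to follow its ossification. The labels give no genotype, sex or treatment that differs between the ages, and do not say whether each library is 1 animal or a pool, so the p-values below speak only of the variation among these 6 libraries.

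MMPs are zinc-dependent proteases that cut collagens and other matrix proteins, either secreted or held at the cell surface. Many ADAM proteins are membrane proteases that shed the outer parts of other membrane proteins, whereas ADAMTS proteases are secreted and cut proteoglycans such as aggrecan and versican, or trim procollagens. ADAMTSL proteins share the ADAMTS ancillary domains but lack the protease domain. TIMPs block the active site of MMPs and, for some of them, of ADAM and ADAMTS proteases. In growing bone these enzymes take part in the removal of cartilage matrix and in its replacement by bone. The roles given for single genes below come mainly from work in human and mouse.

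The libraries held 12546729 to 16033822 counts at day 85 and 14221365 to 16559616 at day 45. The labels name the tissue cartilage and its source chondrocytes and osteocytes. The summed level of 6 cartilage markers (COL2A1, COL9A1, COL11A1, ACAN, SOX9 and MATN1) was 1276, 4544 and 2851 CPM (counts scaled to library size with TMM factors) in day 85 replicates 1, 2 and 3, against 13648, 13056 and 10756 CPM in day 45 replicates 1, 2 and 3. COL2A1, the main cartilage collagen, stood at 28.8, 1074 and 50.6 CPM at day 85, so it was low in replicates 1 and 3. COL9A1, SOX9 and MATN1 were also lower in replicates 1 and 3 than in replicate 2. ACAN, at 233, 947 and 990 CPM, was lowest in replicate 1 and highest in replicate 3. COL11A1 stood at 979, 2163 and 1765 CPM. Of the osteocyte genes, DMP1 stood at 693, 1909 and 510 CPM at day 85, against 366, 717 and 123 CPM at day 45, without passing (adjusted p = 0.282). SOST lay the other way, at 13.3, 16.2 and 9.96 CPM at day 85, against 73.0, 75.4 and 51.8 CPM at day 45, and was called lower (log2 ratio -2.34, SE 0.23, adjusted p = 0.0160). MEPE was at or below 1.08 CPM in every library. PHEX (27.8, 57.8 and 25.6 CPM at day 85, against 9.37, 20.3 and 7.46 CPM at day 45) was higher in every day 85 library. So was BGLAP (444, 173 and 335 CPM at day 85, against 23.5, 78.0 and 13.8 CPM at day 45). Neither passed (adjusted p = 0.102 and 0.0627). IBSP and SP7 overlapped between the ages (adjusted p = 0.951 and 0.447). Day 85 replicate 2 stood apart from the other day 85 libraries. Its Spearman correlations across genes with them were 0.931 and 0.938, while replicates 1 and 3 correlated at 0.981. Its osteoclast markers summed to 7613 CPM, against 1381 and 1582 in replicates 1 and 3 and 245 to 816 at day 45 (5 of 6 listed markers had a row, none at 0). Its skeletal muscle markers summed to 1255 CPM, against 14781 and 12687 in replicates 1 and 3 and 747 to 1887 at day 45 (3 of 6 had a row, none at 0). In such bulk tissue, fewer cells of a type and less RNA per cell cannot be told apart.

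Few members of the metalloprotease families passed the test between the ages. Of the 57 members, 45 had enough counts to be tested with edgeR's quasi-likelihood test. ADAM12, ADAM19 and TIMP4 rose at day 85 and ADAMTS6 fell (Benjamini-Hochberg adjusted p under 0.05 over 15022 genes, termed called). These 4 are 8.89% of the tested members, beside 6.56% of all genes tested, so the share lay near the background. Higher calls were 6.67% of members and 3.9% of all genes, and lower calls 2.22% and 2.66%. At an unadjusted p under 0.05, 10 members (22.2%) were higher and 5 (11.1%) lower, beside 15.8% and 13.3% of all genes. Scaled by library totals alone, 437 genes of the whole table were higher and 598 lower, against 586 and 400 with TMM, and 2 members were higher and 1 lower. The median log2 ratio (log2 of the fold change, day 85 over day 45, as throughout) was 0.18 over the tested members and 0.02 over all genes tested. In 15 of the 45 members (33.3%) the libraries of the ages did not overlap, beside 35% of all genes tested. In 10 of them all day 85 libraries were above and in 5 below all day 45 libraries, beside 17.4% and 17.6% of all genes.

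The calls did not hold in most fits that left out 1 library, in which few genes of the whole table were called either. Without day 85 replicate 2, 9 members were higher and 5 lower, while 22.3% of all genes were called, and all 4 kept their call. Without day 45 replicate 1, 2 or 3, or day 85 replicate 1 or 3, edgeR called 0 members and at most 0.776% of all genes. At an unadjusted p under 0.05, 10 to 13 members were higher and 3 to 5 lower in these 5 fits. So were 2916 to 3855 of 15215 to 15389 genes of the whole table, both directions together. The smallest adjusted p of a member ran from 0.051 to 0.109 over these 5 fits. DESeq2 on all libraries called 9 of 47 members higher and 4 lower, while it called 23.3% of 16446 genes.

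**Figure D1:**
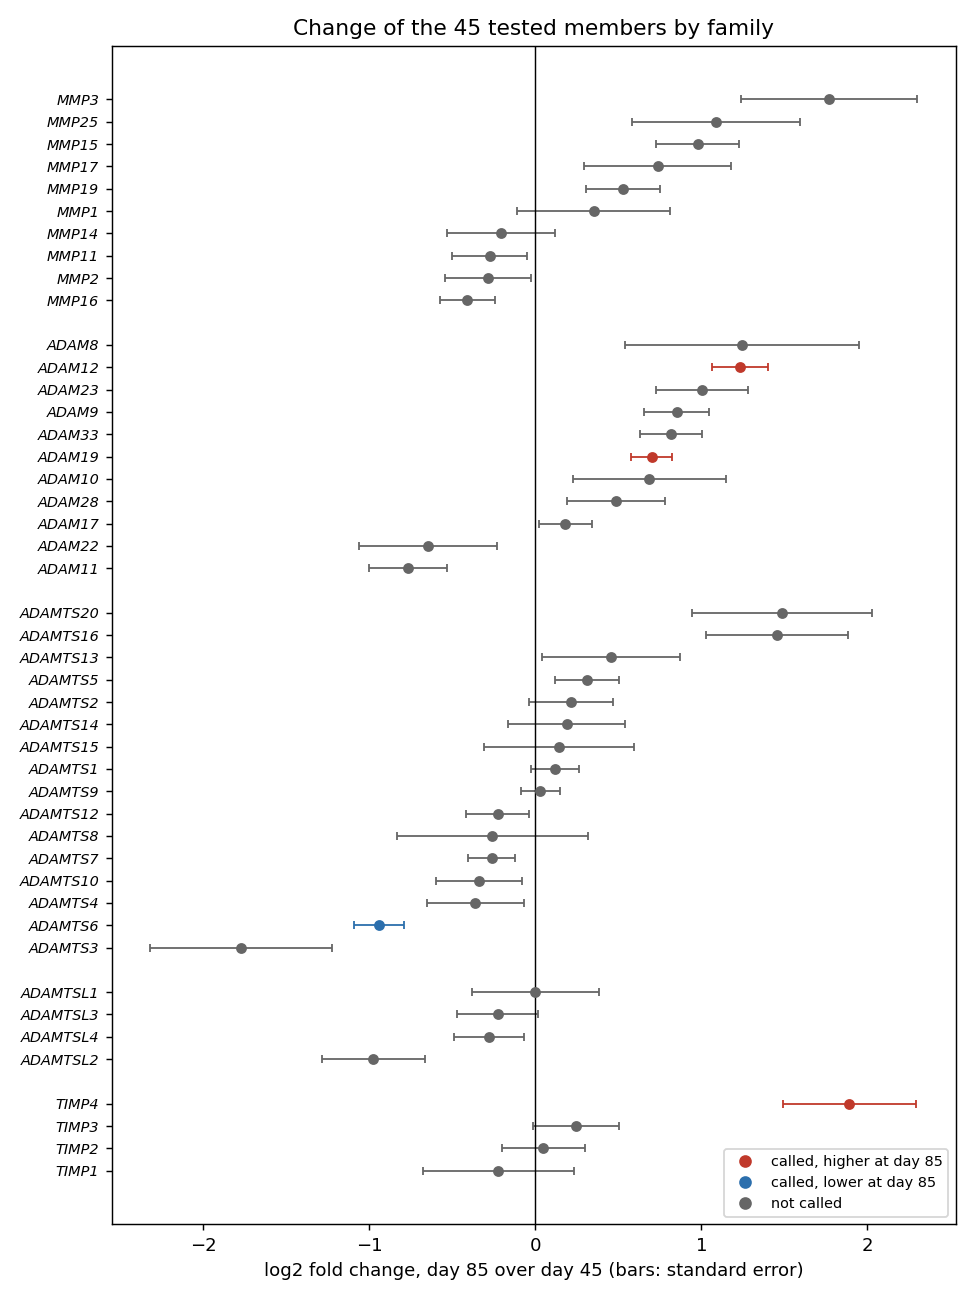
Log2 ratio of each of the 45 tested members, day 85 over day 45, with its standard error as a bar, grouped by family. ADAM12, ADAM19 and TIMP4 (red) were called higher and ADAMTS6 (blue) lower, and the other 41 (grey) were not called.

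By level per transcript length (the deposited FPKM), a few genes carried the families. MMP2, a secreted gelatinase, had 679, 1051 and 1030 FPKM at day 85, against 1077, 1356 and 1010 FPKM at day 45. MMP14, the membrane-bound collagenase that activates the MMP2 proenzyme, had 197, 429 and 321 FPKM at day 85, against 318, 443 and 367 FPKM at day 45. In both genes day 85 replicate 1 was the lowest of the 6 libraries and the ages overlapped. Together with TIMP1, TIMP2 and MMP11 they made up 76.7% of the summed FPKM of all members at day 85 and 80.8% at day 45. The FPKM of a gene depends on the length of its gene model, and the models of TIMP3, TIMP4, ADAMTS3 and ADAMTSL1 were short (516, 598, 880 and 603 bases, worked out from counts and FPKM), so their place among the other genes is uncertain.

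**Figure D2:**
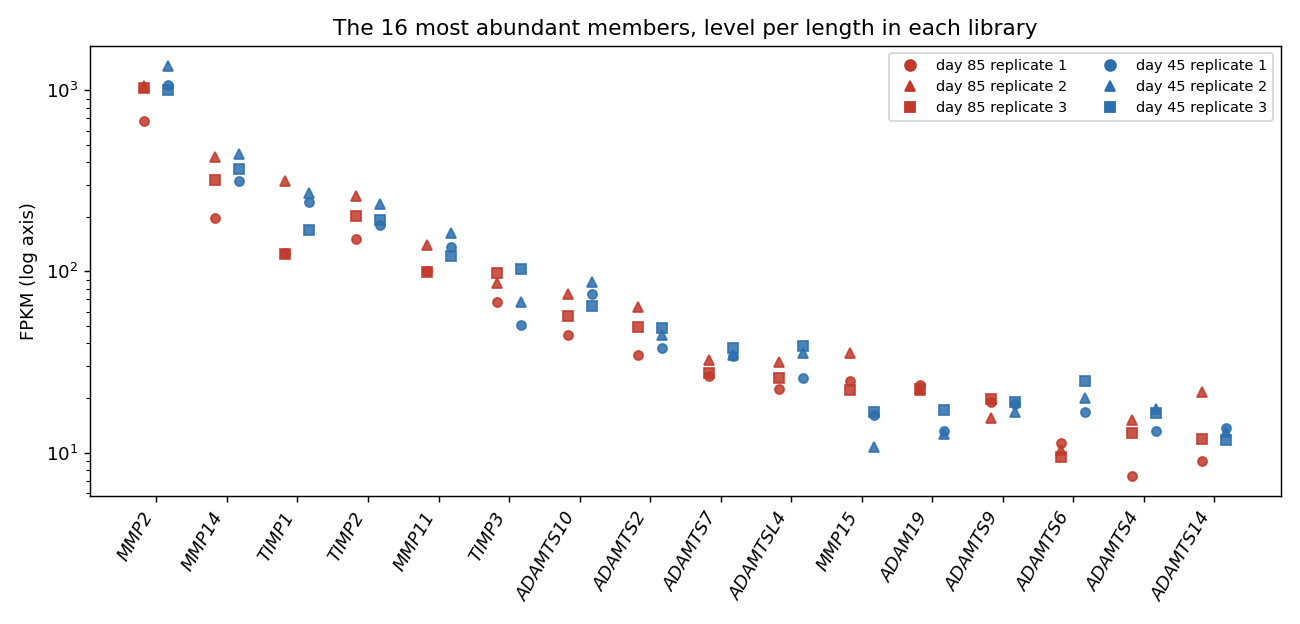
FPKM on a log axis of the 16 most abundant members in each library, day 85 (red) left of day 45 (blue), with a marker shape for each replicate. MMP2 lay highest in every library, between 679 and 1356 FPKM, and ADAM19, MMP15, ADAMTS6 and ADAMTS7 are the genes here whose ages did not overlap on this scale (ADAMTS7 overlapped in CPM).

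Of the 10 secreted MMP genes, 5 could be tested and edgeR called none, beside 6.56% of all genes. So few tested genes cannot tell none from this share. Only MMP3 was at an unadjusted p under 0.05, on the higher side, where 15.8% of all genes lay. DESeq2, which called 23.3% of all genes, called MMP3. MMP2 had a log2 ratio of -0.28 (SE 0.26, adjusted p = 0.497) and MMP11, or stromelysin 3, of -0.27 (SE 0.23, adjusted p = 0.455). MMP11 averaged 262 ± 68 CPM at day 85 and 317 ± 62.4 CPM at day 45 (SD, n = 3 each, as below). MMP3, or stromelysin 1, which cuts proteoglycans and activates other proMMPs, stood at 17.5, 12.7 and 24.3 CPM at day 85, against 1.84, 6.06 and 8.11 CPM at day 45. Every day 85 library lay above every day 45 library, but the log2 ratio of 1.77 (SE 0.53) did not pass (adjusted p = 0.0937). Without day 85 replicate 2 it did (1.97, adjusted p = 0.0462). MMP19 averaged 23.6 ± 4.68 CPM at day 85 and 16.4 ± 3.8 CPM at day 45 (adjusted p = 0.173). MMP1, the interstitial collagenase, was low, with 3.2 ± 1.77 CPM at day 85 and 2.52 ± 0.316 CPM at day 45 (adjusted p = 0.645).

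The other 5 secreted MMPs had too few counts to test. MMP7 and MMP12 had 1 count each over all libraries, MMP8, the neutrophil collagenase, had 2, MMP20, the enamel protease enamelysin, had 22, and MMP27 had 0. A count of 0 allows up to 3 counts, or 0.184 to 0.232 CPM per library, counting error only.

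The 2 genes of this family set aside by the selection were much more abundant at day 85 in replicate 2. MMP9 had 480, 5716 and 702 CPM at day 85, against 39.5, 469 and 63.0 CPM at day 45, and MMP13 had 397, 1099 and 191 CPM at day 85, against 40.0, 189 and 53.8 CPM at day 45. In both, the lowest day 85 library lay just above the highest day 45 library, and neither passed (log2 ratio 3.59, SE 1.42, adjusted p = 0.160, and 2.58, SE 0.87, adjusted p = 0.122).

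The membrane MMPs differed in direction. MMP15 (MT2-MMP) stood at 86.6, 136 and 80.4 CPM at day 85, against 58.6, 39.6 and 55.5 CPM at day 45. The ages did not overlap and the level was 1.97-fold higher, just outside the threshold (log2 ratio 0.98, SE 0.25, adjusted p = 0.0629). It was called without day 85 replicate 2 and by DESeq2. MMP16 (MT3-MMP) lay the other way, at 11.7, 14.4 and 12.1 CPM at day 85, against 14.4, 18.0 and 18.2 CPM at day 45, without passing (log2 ratio -0.41, SE 0.17, adjusted p = 0.159). MMP14 had a log2 ratio of -0.21 (SE 0.33, adjusted p = 0.705). MMP25, the GPI-anchored leukolysin of leukocytes, had 8.43, 21.9 and 6.0 CPM at day 85, against 4.84, 7.43 and 4.84 CPM at day 45 (adjusted p = 0.2101). MMP17, also GPI-anchored, averaged 2.45 ± 0.894 CPM at day 85 and 1.46 ± 0.643 CPM at day 45 (adjusted p = 0.309).

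The 8 ADAM genes known as active proteases all had positive log2 ratios, with a median of 0.76, and 2 of them were called higher. Over all 15022 genes tested the ratio was positive in 7782, the median was 0.02 and 3.9% were called higher. The signs held under each other scaling, and only ADAM8 turned when a library was left out. ADAM12 (meltrin alpha), a disintegrin metalloprotease of mesenchymal cells, stood at 34.4, 43.5 and 34.7 CPM at day 85, against 14.4, 14.8 and 18.7 CPM at day 45. The ages were well apart, and the gene rose 2.35-fold (log2 ratio 1.23, SE 0.17, adjusted p = 0.0200). Its row lies on chromosome 14 at 146937523 to 147045431 in the deposited coordinates, whose genome build the sources used here do not give. Over the fits that left out 1 library its log2 ratio ran from 1.11 to 1.36 and its adjusted p from 0.00639 to 0.112, past the threshold only without day 85 replicate 2.

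ADAM19 (meltrin beta), which sheds neuregulin, stood at 155, 161 and 154 CPM at day 85, against 90.9, 88.8 and 109 CPM at day 45. The day 85 libraries were close to each other and all above day 45, and the gene rose 1.63-fold (log2 ratio 0.70, SE 0.12, adjusted p = 0.0313). Its row is on chromosome 16 at 71570441 to 71669557. With 1 library left out its log2 ratio was 0.64 to 0.80 and its adjusted p 0.0145 to 0.159, again past the threshold only without day 85 replicate 2. Both genes were highest in day 85 replicate 2, whose skeletal muscle markers summed to 1255 CPM and whose osteoclast markers summed to 7613 CPM, with the sums of the other libraries given above. Endothelial markers were higher in every day 85 library (790 to 1278 CPM, against 243 to 467 CPM at day 45), and the part of these 3 marker sets in the levels of ADAM12 and ADAM19 was not tested.

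ADAM33 and ADAM9 lay just outside the threshold. ADAM33 stood at 30.4, 36.4 and 30.3 CPM at day 85, against 15.4, 16.6 and 23.0 CPM at day 45 (log2 ratio 0.82, SE 0.19, adjusted p = 0.0516), and passed with RLE size factors. ADAM9 (meltrin gamma) stood at 24.6, 28.9 and 23.5 CPM at day 85, against 13.5, 11.3 and 17.8 CPM at day 45 (log2 ratio 0.85, SE 0.20, adjusted p = 0.0524). In both genes the ages did not overlap. DESeq2 called both, and without day 85 replicate 2 both were called (adjusted p = 0.0416 for ADAM33 and 0.0435 for ADAM9).

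The sheddases with the widest range of substrates did not pass. ADAM10, which cuts Notch receptors and cadherins, had 43.2, 111 and 86.5 CPM at day 85, against 64.8, 59.4 and 25.5 CPM at day 45, with wide spread at both ages (adjusted p = 0.362). ADAM17, which releases tumour necrosis factor and EGF receptor ligands, averaged 42.9 ± 8.02 CPM at day 85 and 37.8 ± 2.23 CPM at day 45 (ratio on the log2 scale 0.18, SE 0.16, adjusted p = 0.475). The second row named ADAM17, on the same chromosome, had a log2 ratio of 0.22 (SE 0.24). ADAM8, a protease of leukocytes and osteoclasts, had 6.03, 29.1 and 5.21 CPM at day 85, against 4.53, 7.07 and 5.43 CPM at day 45. Replicate 2 alone was high, and without it the log2 ratio was -0.01 rather than 1.25 (adjusted p = 0.9798 and 0.289). That library also had the highest summed osteoclast markers (7613 CPM) and macrophage markers (686 CPM, against 232 and 200 in the other day 85 libraries and 50.6 to 110 at day 45, 6 of 6 markers with a row and CD163 at or near 0), and their part in the ADAM8 level was not tested. The macrophage sum there came mainly from CSF1R (312 CPM) and CD68 (293 CPM), which osteoclasts also express. C1QA, a complement gene of macrophages, stood at 68.2, 55.4 and 37.3 CPM at day 85, against 15.0, 22.9 and 26.8 CPM at day 45, highest in day 85 replicate 1. C1QB was also highest there (12.7, 10.6 and 6.46 CPM at day 85, against 2.39, 3.32 and 3.93 CPM at day 45). MSR1 was highest in day 85 replicate 2, at 8.58, 14.6 and 6.33 CPM at day 85, against 2.39, 2.52 and 2.29 CPM at day 45. ADAM28 averaged 5.04 ± 1.62 CPM at day 85 and 3.598 ± 0.329 CPM at day 45 (adjusted p = 0.311).

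The 3 ADAM genes that lack protease activity and act as receptors in the nervous system were low and differed in direction. ADAM11 stood at 6.80, 4.87 and 5.47 CPM at day 85, against 8.14, 8.87 and 12.2 CPM at day 45 (adjusted p = 0.0913). ADAM22 averaged 4.98 ± 2.03 CPM at day 85 and 7.81 ± 3.47 CPM at day 45 (adjusted p = 0.336). ADAM23 stood at 10.3, 6.93 and 13.1 CPM at day 85, against 4.22, 5.27 and 5.63 CPM at day 45 (log2 ratio 1.00, SE 0.27, adjusted p = 0.0722). edgeR called none of these, beside 6.56% of all genes. DESeq2, which called 23.3% of all genes, called ADAM11 lower and ADAM23 higher. Those 2 were at an unadjusted p under 0.05 (33.3% each way, beside 15.8% higher and 13.3% lower of all genes). Without day 85 replicate 2, edgeR called ADAM23 higher (adjusted p = 0.0118). The 7 genes known mainly from testis and sperm or the epididymis, ADAM2, ADAM7, ADAM18, ADAM21, ADAM29, ADAM30 and ADAM32, had 0 to 31 counts over all libraries and were not tested.

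**Figure D3:**
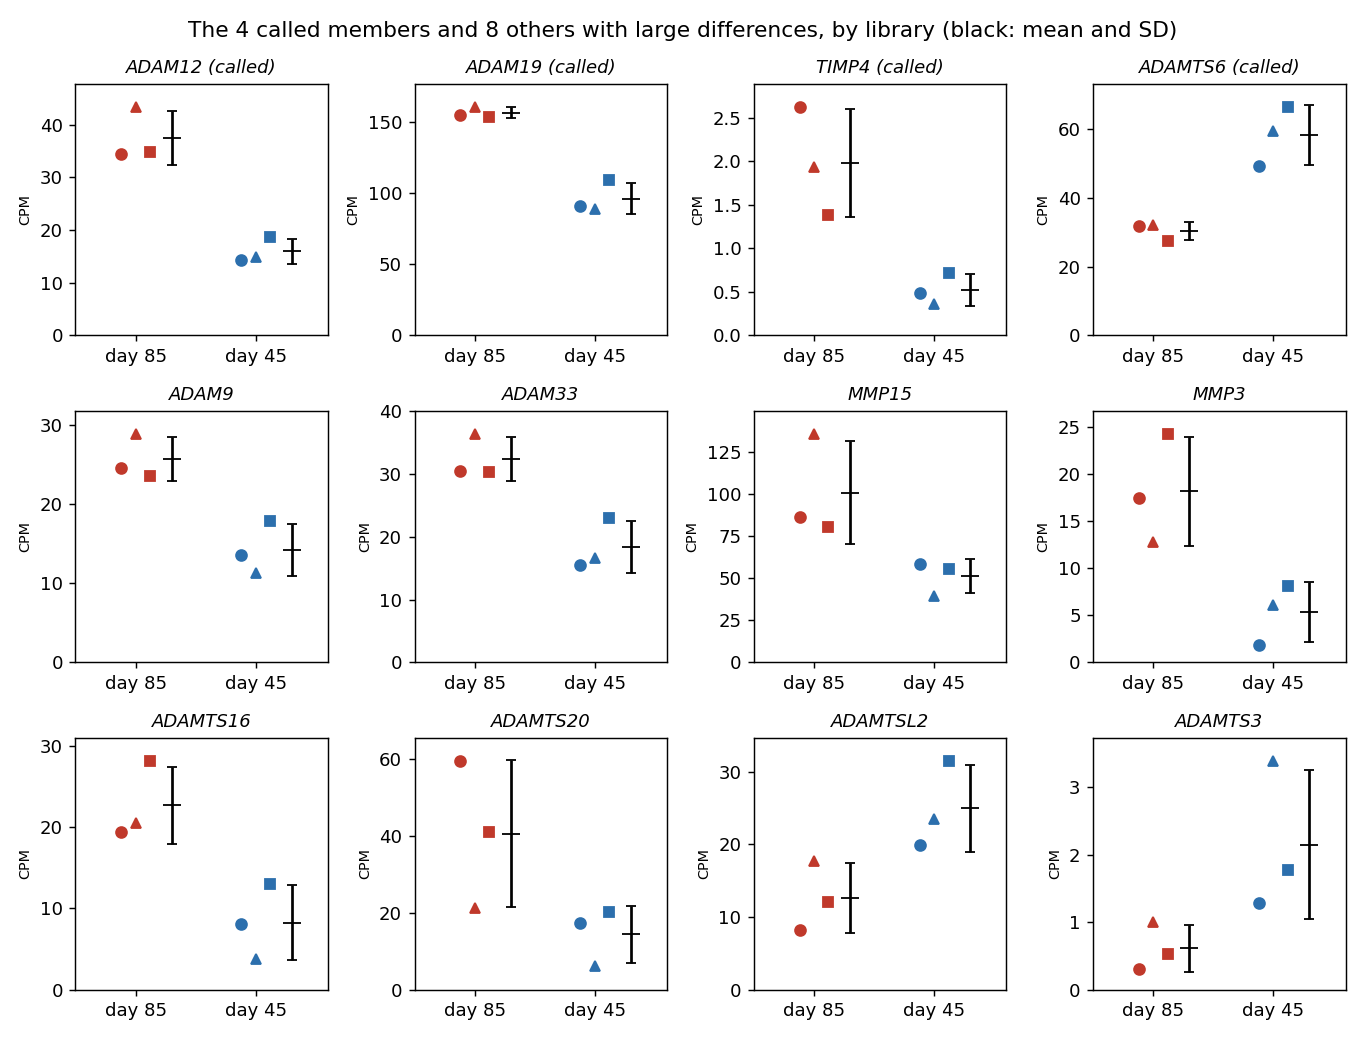
TMM-scaled CPM in each library for the 4 called members (top row) and 8 others whose ages did not overlap, day 85 (red) left of day 45 (blue), with mean and SD in black. ADAM12 stood at 34.4 to 43.5 CPM at day 85 and 14.4 to 18.7 CPM at day 45, and ADAMTS6 at 27.5 to 32.1 CPM at day 85 and 49.3 to 66.7 CPM at day 45.

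Of the 7 ADAMTS genes known to cut aggrecan or versican, edgeR and DESeq2 called none, beside 6.56% and 23.3% of all genes. A set this small cannot tell none from these shares. ADAMTS20 alone was at an unadjusted p under 0.05 (14.3% higher, beside 15.8% of all genes), and the median log2 ratio of the 7 was 0.12. ADAMTS4 and ADAMTS5, the main aggrecanases of joint cartilage, lay within the spread. ADAMTS4 had 23.8, 53.3 and 42.9 CPM at day 85, against 43.8, 59.6 and 50.8 CPM at day 45 (log2 ratio -0.36, SE 0.29, adjusted p = 0.447). ADAMTS5 averaged 8.71 ± 1.44 CPM at day 85 and 7.02 ± 0.674 CPM at day 45 (ratio on the log2 scale 0.31, SE 0.20, adjusted p = 0.328). Their substrate ACAN stood at 233, 947 and 990 CPM at day 85, against 2696, 2832 and 2167 CPM at day 45 (log2 ratio -1.83, SE 0.53, adjusted p = 0.0865).

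ADAMTS9, a versican-cleaving protease, was the most even of the 7, at 125, 113 and 135 CPM at day 85, against 128, 117 and 120 CPM at day 45 (log2 ratio 0.03, SE 0.12). Its sign turned with library totals as the scaling. ADAMTS1 averaged 22.8 ± 2.87 CPM at day 85 and 21 ± 1.35 CPM at day 45 (ratio on the log2 scale 0.12, SE 0.14, adjusted p = 0.617), and the second row of that name had a log2 ratio of -0.15 (SE 0.17). ADAMTS20, the close relative of ADAMTS9, behaved otherwise, with 59.5, 21.1 and 41.1 CPM at day 85, against 17.3, 6.06 and 20.1 CPM at day 45. Its lowest day 85 library lay just above its highest day 45 library (log2 ratio 1.48, SE 0.54, adjusted p = 0.139), and it passed without day 85 replicate 2 (1.79, adjusted p = 0.0435). ADAMTS15 and ADAMTS8 both had their highest level in day 45 replicate 3. ADAMTS15 stood at 55.5, 39.3 and 54.9 CPM at day 85, against 40.3, 20.4 and 74.9 CPM at day 45 (adjusted p = 0.861). ADAMTS8 stood at 16.8, 13.8 and 12.5 CPM at day 85, against 8.14, 9.02 and 34.3 CPM at day 45 (adjusted p = 0.795).

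The 3 procollagen N-proteinases trim the N-terminal propeptides of fibrillar procollagens. ADAMTS2, the main one for type I procollagen, had 233, 472 and 345 CPM at day 85, against 267, 322 and 315 CPM at day 45, a log2 ratio of 0.22 (SE 0.25, adjusted p = 0.602). ADAMTS14 had 31.9, 84.5 and 44.0 CPM at day 85, against 51.2, 49.4 and 40.2 CPM at day 45 (adjusted p = 0.752). Both were highest in day 85 replicate 2, and without it their log2 ratios were -0.06 and -0.30. ADAMTS3, linked to type II procollagen and to processing of the lymphatic growth factor VEGFC, was low, at 0.309, 1.000 and 0.527 CPM at day 85, against 1.29, 3.39 and 1.77 CPM at day 45. It rested on 122 counts in all, its ages did not overlap, and its log2 ratio of -1.77 (SE 0.55) did not pass (adjusted p = 0.0945). It was called lower by DESeq2 and without day 85 replicate 2 (adjusted p = 0.0334 with edgeR). Its row spans only 7821 bases of the genome, with a model of 880 bases, so part of the transcript may not be counted.

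ADAMTS6 was the only member called lower with all libraries. It stood at 31.8, 32.1 and 27.5 CPM at day 85, against 49.3, 59.4 and 66.7 CPM at day 45. All day 85 libraries lay below all day 45 libraries, and the gene fell 1.92-fold (log2 ratio -0.94, SE 0.15, adjusted p = 0.0259). Its row is on chromosome 16 at 46990247 to 47281159. With 1 library left out its log2 ratio ran from -1.07 to -0.84 and its adjusted p from 0.00982 to 0.109, past the threshold only without day 85 replicate 2. Cartilage markers were lower in every day 85 library as well, with the sums given above. Markers of tendon and fibrous tissue summed to 492, 924 and 1119 CPM at day 85, against 1641, 2605 and 1511 CPM at day 45 (3 of 5 had a row), without overlap. The part of both sets in the ADAMTS6 level was not tested. ADAMTS6 and its close relative ADAMTS10 act on the fibrillin microfibrils of the matrix. ADAMTS10, the most abundant ADAMTS gene per length, had 44.5, 74.8 and 56.5 FPKM at day 85, against 75.5, 88.0 and 64.5 FPKM at day 45, and did not pass (log2 ratio -0.34, SE 0.26, adjusted p = 0.4201).

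ADAMTS7 and ADAMTS12, which cut the cartilage oligomeric matrix protein COMP, did not pass. ADAMTS7 stood at 138, 187 and 149 CPM at day 85, against 187, 193 and 189 CPM at day 45 (log2 ratio -0.26, SE 0.14, adjusted p = 0.264). Without day 85 replicate 2 it did (-0.40, adjusted p = 0.0416). ADAMTS12 averaged 57.6 ± 4.23 CPM at day 85 and 67.4 ± 17.2 CPM at day 45 (adjusted p = 0.4600). COMP itself stood at 11.4, 93.1 and 33.0 CPM at day 85, against 85.5, 73.1 and 72.0 CPM at day 45 (adjusted p = 0.503). ADAMTS16, a protease known from kidney and gonad, stood at 19.4, 20.5 and 28.2 CPM at day 85, against 8.08, 3.75 and 13.0 CPM at day 45. Its ages did not overlap, and it missed the threshold at a log2 ratio of 1.45 (SE 0.43, adjusted p = 0.0879), while DESeq2 called it higher. ADAMTS13, which cuts von Willebrand factor, averaged 2.65 ± 1.23 CPM at day 85 and 1.93 ± 0.400 CPM at day 45 (adjusted p = 0.495), while its substrate VWF stood at 115, 105 and 83.1 CPM at day 85, against 15.0, 10.4 and 21.9 CPM at day 45, and was called higher (log2 ratio 2.68, SE 0.29, adjusted p = 0.0160). VWF is itself one of the endothelial markers, whose sums are given with TIMP4 below.

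Of the 4 ADAMTSL genes, ADAMTSL2, ADAMTSL3 and ADAMTSL4 had log2 ratios below 0 and ADAMTSL1 lay at 0. edgeR called none, beside 6.56% of all genes. ADAMTSL2 alone was at an unadjusted p under 0.05 (25.0% lower, beside 13.3% of all genes) and called by DESeq2. ADAMTSL2, a fibrillin-binding protein that modulates TGF-beta, stood at 8.19, 17.7 and 12 CPM at day 85, against 19.8, 23.4 and 31.5 CPM at day 45. The ages did not overlap, and the log2 ratio of -0.98 (SE 0.31) did not pass (adjusted p = 0.1001). Without day 85 replicate 2 it passed at -1.30 (adjusted p = 0.0175). ADAMTSL4, another fibrillin-binding protein, averaged 107 ± 24.3 CPM at day 85 and 130 ± 23.5 CPM at day 45 (adjusted p = 0.415), and ADAMTSL3 averaged 49.9 ± 16.1 CPM at day 85 and 58.3 ± 6.12 CPM at day 45 (adjusted p = 0.569). The row named ADAMTSL1 lies 66.5 kb from ADAMTSL3 on chromosome 7, whereas RefSeq (Sscrofa11.1) places genes of these names on different chromosomes, so the identity of that row is uncertain. Its mean was 4.49 CPM at both ages. Of the fibrillins, FBN2 stood at 146, 147 and 226 CPM at day 85, against 263, 428 and 568 CPM at day 45 (adjusted p = 0.061), and FBN1 at 206.6, 123.4 and 218.7 CPM at day 85, against 41.6, 42.6 and 142 CPM at day 45 (adjusted p = 0.183).

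Among the inhibitors, TIMP4 was called and the 3 abundant genes were not. TIMP4, best known from heart and vessels, had 34, 29 and 21 counts in the day 85 libraries, against 8, 5 and 11 counts at day 45. That is 2.63, 1.93 and 1.38 CPM at day 85, against 0.490, 0.361 and 0.720 CPM at day 45. The ages did not overlap and the gene rose 3.71-fold (log2 ratio 1.89, SE 0.40, adjusted p = 0.0440), from a level near the limit of these depths. It lies on chromosome 13 at 75371790 to 75377519. It missed the threshold with library totals as the scaling (adjusted p = 0.0516), and with 1 library left out its adjusted p ran from 0.0306 to 0.174, past the threshold only without day 85 replicate 2. Endothelial markers moved with it. They summed to 1278, 790 and 950 CPM at day 85, against 334, 243 and 467 CPM at day 45 (5 of 6 had a row, none at 0), and their part in the TIMP4 level was not tested.

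TIMP1 stood at 235, 654 and 242 CPM at day 85, against 472, 544 and 305 CPM at day 45. Day 85 replicate 2 was above all day 45 libraries and replicates 1 and 3 below them (log2 ratio -0.22, SE 0.46, adjusted p = 0.775). Without replicate 2, TIMP1 was called lower (log2 ratio -0.88, adjusted p = 0.0423). TIMP2, which also helps MMP14 to activate MMP2, had 159, 303 and 222 CPM at day 85, against 201, 265 and 195 CPM at day 45 (log2 ratio 0.05, SE 0.25, adjusted p = 0.916). TIMP3, the inhibitor bound to the matrix, which also blocks ADAM17 and aggrecanases, averaged 44.2 ± 9.17 CPM at day 85 and 37.4 ± 11.4 CPM at day 45 (adjusted p = 0.562).

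Summed over a family, only ADAM transcripts had ages that did not overlap. Their summed FPKM was 90.6, 106 and 93.0 at day 85, against 60.2, 59.0 and 72.0 at day 45. ADAMTS genes summed to 203, 270 and 234 FPKM at day 85, against 242, 263 and 282 FPKM at day 45, and MMP genes to 1030, 1688 and 1503 FPKM at day 85, against 1566, 1991 and 1539 FPKM at day 45. The ratio of summed MMP to summed TIMP FPKM was 2.95, 2.53 and 3.52 at day 85, against 3.30, 3.46 and 3.30 at day 45. The MMP sums and this ratio leave out MMP9 and MMP13, so they do not give the balance of all MMP and TIMP transcripts. MMP9 had 197, 2128 and 277 FPKM at day 85, against 15.5, 180 and 26.9 FPKM at day 45. MMP13 had 290, 728 and 134 FPKM at day 85, against 27.9, 129 and 40.9 FPKM at day 45. TIMP genes summed to 349, 666 and 427 FPKM at day 85, against 475, 576 and 467 FPKM at day 45. These sums are descriptions without a test, and the MMP and TIMP sums rest mainly on MMP2, MMP14, TIMP1 and TIMP2.

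**Figure D4:**
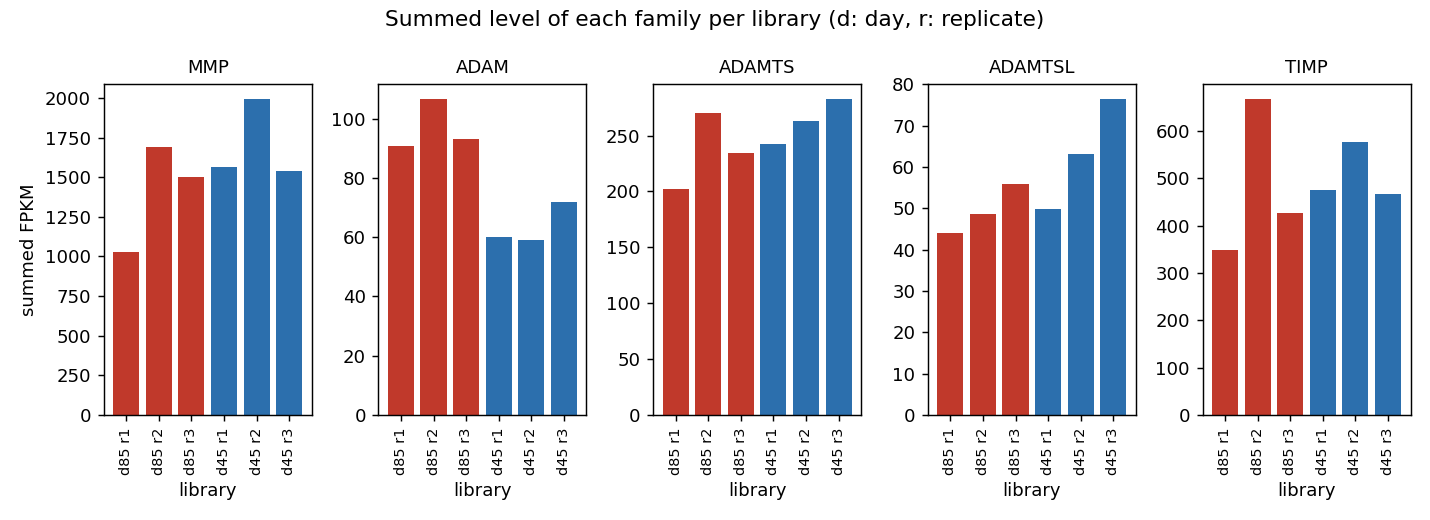
Summed FPKM of the members of each family in each library, day 85 (red) left of day 45 (blue), each family on its own axis from 0. MMP9 and MMP13 are not in the MMP bars. ADAM sums were 90.6 to 106 FPKM at day 85 and 59.0 to 72.0 FPKM at day 45, whereas the bars of the other 4 families overlapped between the ages.

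The libraries of day 85 differed in these genes. Of the 45 tested members, 19 (42.2%) were highest in day 85 replicate 2, beside 21.6% of all genes tested. These included all 8 proteolytic ADAM genes and 4 of the 5 membrane MMPs. In 16 members (35.6%) day 85 replicate 1 was the lowest library, beside 23.6% of all genes. MMP2, MMP14, MMP11, ADAMTS2, ADAMTS4, ADAMTS7, ADAMTS10, TIMP1 and TIMP2 were among them. All members together took 0.511%, 0.817% and 0.688% of the counts of the day 85 libraries, against 0.708%, 0.865% and 0.726% at day 45. Skeletal muscle markers were highest in day 85 replicate 1 (14781 CPM) but nearly as high in day 85 replicate 3 (12687 CPM), which was not the lowest library for these genes. The part of muscle in the low levels of replicate 1 was not tested.

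**Figure D5:**
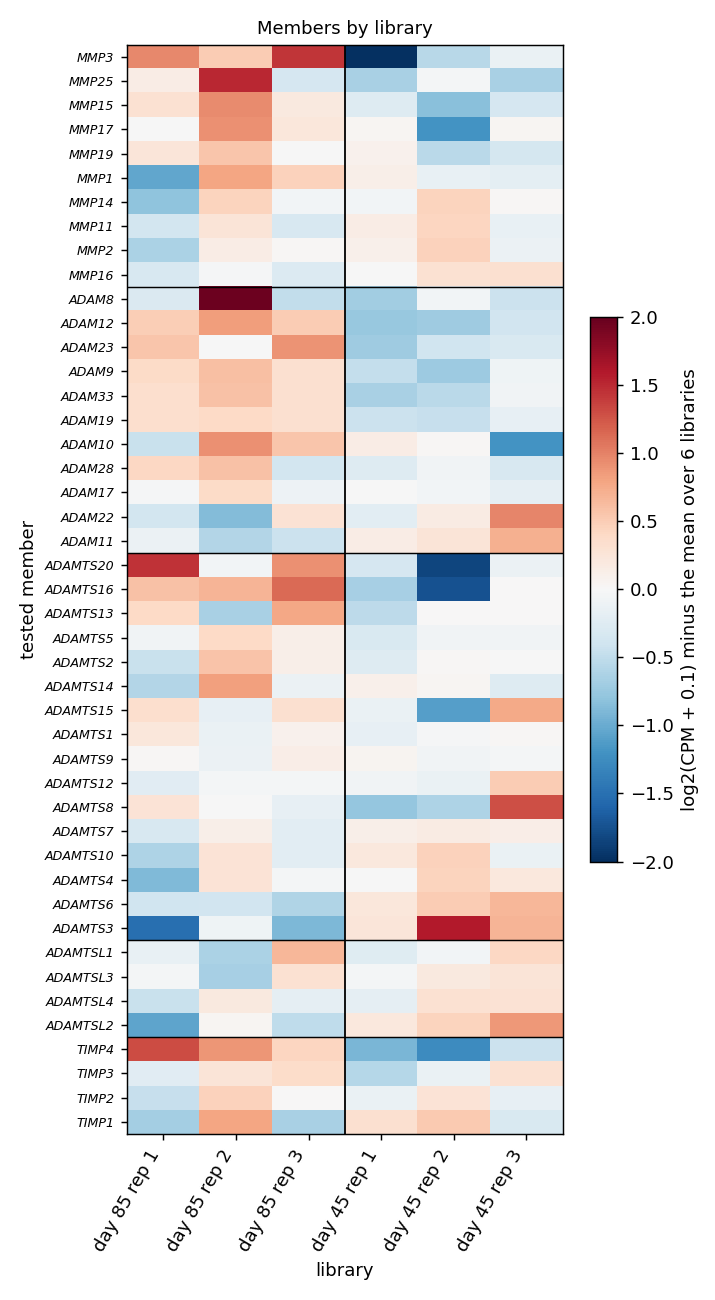
Colour gives log2(CPM + 0.1) of each tested member in each library minus its mean over the 6 libraries, with red above and blue below, families separated by lines. Day 85 replicate 2 was the highest library for 19 of the 45 members, and ADAM8 in that library (29.1 CPM, against 4.53 to 7.07 CPM in the other 5) is the darkest red cell.

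Several members are neighbours in the deposited coordinates. MMP7, MMP20, MMP27, MMP8, MMP1, MMP3, MMP12 and MMP13 lie in this order in a cluster of 372 kb on chromosome 9, from 37133037 to 37504552. Within it MMP13, MMP3 and MMP1 had enough counts to test and the other 5 had 0 to 22 counts each. ADAMTS8 and ADAMTS15 lie 17.3 kb apart elsewhere on chromosome 9, and day 45 replicate 3 was the highest library for both. ADAM9 lies 14.8 kb from ADAM32, which had 4 counts in all. ADAMTS13 and ADAMTSL2 lie 65.7 kb apart on chromosome 1, with log2 ratios of 0.46 and -0.98. ADAMTS1 and ADAMTS5 lie 269.3 kb apart on chromosome 13, with 0.12 and 0.31.

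Genes that activate, inhibit or are cut by these proteases were examined as a list of 38, of which 33 had a row and 31 were tested. VWF was called higher and PCOLCE2, an enhancer of procollagen C-proteinase, lower, which is 3.23% each way, beside 3.9% and 2.66% of all genes tested. By unadjusted p under 0.05 there were 5 higher and 5 lower (16.1% each way), beside 15.8% and 13.3% of all genes. The list's median log2 ratio was 0.15. PCOLCE2 stood at 24.4, 46.5 and 37.9 CPM at day 85, against 71.5, 92.7 and 73.9 CPM at day 45 and fell 2.19-fold (log2 ratio -1.13, SE 0.25, adjusted p = 0.0458). Both calls held without day 85 replicate 2. VWF was also called without day 85 replicate 3 and day 45 replicate 3, and PCOLCE2 in no other such fit. Of the larger differences that did not pass, PLAT, the tissue plasminogen activator, stood at 52.4, 66.7 and 36.3 CPM at day 85, against 21.1, 17.4 and 32.1 CPM at day 45 (adjusted p = 0.0693). A2M, the plasma protease inhibitor, stood at 40.4, 45.7 and 20.6 CPM at day 85, against 13.2, 26.3 and 8.64 CPM at day 45 (adjusted p = 0.175). PCSK6, a proprotein convertase, stood at 2.63, 6.73 and 4.35 CPM at day 85, against 10.8, 8.37 and 8.64 CPM at day 45 (adjusted p = 0.114). The procollagen C-proteinase BMP1 averaged 380 ± 85.1 CPM at day 85 and 360 ± 60.6 CPM at day 45 (adjusted p = 0.819). FURIN, the convertase that activates membrane MMPs and ADAMs, averaged 108 ± 31.9 CPM at day 85 and 135 ± 11.4 CPM at day 45 (adjusted p = 0.3603).

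Of 6 tested partners of ADAM10 and ADAM17, edgeR called none, beside 6.56% of all genes. RHBDF1 and RHBDF2 were higher and TSPAN17 lower at an unadjusted p under 0.05. That is 33.3% higher and 16.7% lower, beside 15.8% and 13.3% of all genes. RHBDF2 (iRhom2), which carries ADAM17 to the cell surface, stood at 23.7, 34.1 and 20.1 CPM at day 85, against 15.7, 16.2 and 14.9 CPM at day 45 (log2 ratio 0.73, SE 0.21, adjusted p = 0.0808). RECK, a membrane-anchored MMP inhibitor, averaged 52.1 ± 7 CPM at day 85 and 51.7 ± 4.94 CPM at day 45 (adjusted p = 0.9696). LRP1, the receptor that clears secreted MMPs, ADAMTS proteases and TIMPs, averaged 606 ± 145 CPM at day 85 and 541 ± 83.7 CPM at day 45 (adjusted p = 0.654). VCAN, the proteoglycan versican, averaged 1283 ± 298 CPM at day 85 and 1510 ± 222 CPM at day 45 (adjusted p = 0.496).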

How the data were processed

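Total RNA of condyles was sequenced after removal of ribosomal RNA, per the labels' protocols, and aligned with HISAT2, per the submitters' processing notes (no version given). The authors deposited whole-number read counts per Ensembl gene and FPKM of each library, per the file headers. The counting program, strand setting, genome build and annotation are not stated in the sources used here. Columns were matched to samples by age and replicate number in the titles.

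The whole count table went through edgeR 4.0.16 (R 4.3.3): filterByExpr by age (minimum count 10), TMM, the robust quasi-likelihood F test on age alone, and Benjamini-Hochberg adjustment over 15022 genes. The SE is the size of the log2 ratio divided by the square root of F. CPM uses TMM-scaled library sizes, and 1 count is worth 0.0612 to 0.0773 CPM. Deposited FPKM values serve levels between genes. The test was tried on simulated data first, where it missed most 2-fold changes. More of its calls there were false than the adjusted p threshold allows. No library was a duplicate of another (chi-square per degree of freedom of 20.2 or more in every pair).

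Members, role groups and lists were chosen with earlier results of these data known, so no p adjusted over the list is given. Named with values are called members, the 10 most abundant per length, the 5 largest changes each way and 29 anchor genes; others were added after their values were seen. Alternatives were RLE and total-count scaling, no filter, DESeq2 1.42.0, limma-trend (limma 3.58.1) on log2(FPKM + 0.1), a replicate block, summed rows of the same name, and each library left out. No protein or promoter sequences were used here.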

Additional observations from a re-analysis of the deposited data

How the results depend on the processing

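DESeq2 called 9 members higher and 4 lower, and 6 companion genes (the list of activators, inhibitors and substrates) higher and 5 lower, while it called 2064 and 1770 genes of the whole table. RLE scaling, total counts, no filter, limma-trend on FPKM and summed rows left all 4 counts within 1.5 times. Leaving out 1 library gave 0 to 9 members higher and 0 to 5 lower, and 0 to 1 companion genes higher and 0 to 6 lower. These fits called 0 to 22.3% of all genes. With replicate number as a block, 2 members were higher and 1 lower, and 2 companion genes were higher and 2 lower. That fit called 4.54% of all genes, 465 higher and 217 lower. In it ADAM19 and TIMP4 missed the threshold (adjusted p = 0.0547 and 0.0747) and ADAMTS20 passed (0.0426). Same-numbered libraries deviated together with correlations of 0.0346, 0.302 and 0.103, so the numbers are not taken as pairs, and not every library correlated best with its own number. Signs turned for genes near 0: ADAMTS9 was -0.0049 with total counts and -0.0046 with limma-trend, TIMP2 -0.0195 with limma-trend, and RECK -0.0266, -0.0121 and -0.0264 with total counts, no filter and limma-trend. With 1 library left out, log2 ratios ran from -0.54 to 0.038 for MMP14, -0.012 to 1.63 for ADAM8, -0.032 to 0.10 for ADAMTS9, -0.21 to 0.71 for ADAMTS15, -0.060 to 0.41 for ADAMTS2, -0.30 to 0.42 for ADAMTS14, -0.88 to 0.016 for TIMP1, -0.21 to 0.23 for TIMP2 and -0.076 to 0.12 for RECK. The cause was not tested. ADAMTSL1, at 0 with all libraries, changed sign as well. Low genes such as TIMP4 and ADAMTS3, rest on few counts.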

Other observations

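Some genes of these families stand outside the selection because the deposited table gives them no matching name. The row whose ID pairs with ADAM15, a membrane ADAM of endothelial and other cells, in a table of IDs and symbols stood at 94.6, 107 and 87.2 CPM at day 85, against 67.8, 55.4 and 61.4 CPM at day 45. All day 85 libraries lay above all day 45 libraries, and edgeR's quasi-likelihood test called it higher (log2 ratio 0.64, SE 0.13, adjusted p = 0.0425). The row of ADAMTSL5 was at 4.33, 1.53 and 3.89 CPM at day 85, against 0.735, 0.361 and 1.505 CPM at day 45 (log2 ratio 1.89, SE 0.59, adjusted p = 0.0979). The row of ADAMTS19 was low, at 0.928, 0.667 and 1.12 CPM at day 85, against 0.490, 1.01 and 0.981 CPM at day 45. MMP23B, a membrane-anchored MMP whose name ends in a letter, stood at 163, 92.0 and 159.7 CPM at day 85, against 84.9, 75.0 and 61.5 CPM at day 45, without passing (log2 ratio 0.90, SE 0.25, adjusted p = 0.0720).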
